A study of Mus musculus with 30 samples.

Results

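The 10 immediate early genes described here, Fos, Fosb, Jun, Junb, Egr1, Ier2, Zfp36, Dusp1, Nr4a1 and Klf4, were chosen by symbol from the 39179 gene identifiers counted in the mouse ventral prostate (VP), and all 10 passed the filter on low counts. Male C57BL/6 mice were fed from weaning on normolipidic diets whose fat was linseed oil (LO), soybean oil (SO) or pork fat (PF, lard), and the VP was taken after 12 or 32 weeks of treatment. Each diet had 5 mice at each time point, 30 mice in all, and the strain, the tissue and the library preparation were common to the 6 groups. The mice are called by their diet and by the number, 1 to 5, that their label carries. No source used here says whether a number stood for a cage, a litter or a day, and the p-values measure the spread between these mice. Age and time on the diet cannot be told apart.

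Immediate early genes are transcribed within minutes of a growth factor, cytokine, mechanical or stress signal, from factors already present in the cell and without new protein synthesis. Their mRNAs are short-lived, so their levels follow recent signalling through the MAP kinases, CREB and the serum response factor. Fos, Fosb, Jun and Junb encode the subunits of the AP-1 dimer, Egr1 and Klf4 encode zinc-finger transcription factors, Nr4a1 an orphan nuclear receptor and Ier2 a nuclear early response protein. Zfp36 (tristetraprolin) directs AU-rich mRNAs to decay and Dusp1 dephosphorylates MAP kinases, so both act as brakes on the response. In bulk tissue, fewer cells of a type and less RNA per cell cannot be told apart.

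The sequences before the start sites of 5 members are shown because Fos is the best known member, Nr4a1 and Fosb had the highest r with the members' mean deviation over the 30 mice, Junb parted from them in the mice numbered 1, and Dusp1 held the only full cAMP response element (CRE). They are the 250 bases before the RefSeq start on GRCm38.p6, 5′ to 3′ on the gene's strand, with motif matches on either strand in capitals. Fos lies on the plus strand at chr12:85473640-85473889, Fosb on the minus strand at chr7:19310046-19310295, Junb on the minus strand at chr8:84978749-84978998, Dusp1 on the minus strand at chr17:26508473-26508722 and Nr4a1 on the plus strand at chr15:101266596-101266845.
Fos: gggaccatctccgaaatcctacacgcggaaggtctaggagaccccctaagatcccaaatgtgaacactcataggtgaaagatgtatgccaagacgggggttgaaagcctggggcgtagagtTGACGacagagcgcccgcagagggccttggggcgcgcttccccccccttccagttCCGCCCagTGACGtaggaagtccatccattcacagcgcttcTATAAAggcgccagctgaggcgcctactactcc
Fosb: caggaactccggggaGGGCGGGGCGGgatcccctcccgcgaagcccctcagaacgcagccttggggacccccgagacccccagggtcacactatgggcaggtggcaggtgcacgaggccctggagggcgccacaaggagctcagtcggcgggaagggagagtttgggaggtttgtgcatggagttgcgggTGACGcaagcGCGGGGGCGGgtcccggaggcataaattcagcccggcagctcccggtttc
Junb: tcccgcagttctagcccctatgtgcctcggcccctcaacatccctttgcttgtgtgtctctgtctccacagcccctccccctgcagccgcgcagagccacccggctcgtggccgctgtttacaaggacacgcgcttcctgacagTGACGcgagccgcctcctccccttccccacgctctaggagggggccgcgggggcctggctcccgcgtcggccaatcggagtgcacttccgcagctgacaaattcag
Dusp1: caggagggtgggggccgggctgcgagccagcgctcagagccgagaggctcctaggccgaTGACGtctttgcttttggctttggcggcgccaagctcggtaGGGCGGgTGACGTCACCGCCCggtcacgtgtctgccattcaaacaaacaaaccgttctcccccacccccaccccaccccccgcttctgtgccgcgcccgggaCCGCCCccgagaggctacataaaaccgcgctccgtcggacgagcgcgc
Nr4a1: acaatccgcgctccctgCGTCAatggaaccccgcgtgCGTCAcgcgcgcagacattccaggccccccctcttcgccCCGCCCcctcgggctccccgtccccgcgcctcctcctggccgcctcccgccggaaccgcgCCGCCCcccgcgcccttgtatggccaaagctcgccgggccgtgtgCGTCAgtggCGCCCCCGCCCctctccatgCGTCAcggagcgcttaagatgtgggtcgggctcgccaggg

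Promoter sequences were matched for 8 of the 10 members, all except Egr1 and Ier2. The core of the CRE, TGACG, was found before 6 of the 8 (Fos, Fosb, Junb, Dusp1, Nr4a1 and Klf4) and in 17.8% of the 32851 mouse promoters of the same length. In Fos it ends 62 bases before the start, with a further copy upstream, and Nr4a1 held 4 copies within its 250 bases. The full CRE, TGACGTCA, which contains the core on both strands, stood 143 to 136 bases before the Dusp1 start and in 1.55% of all promoters. The SP1 site GGGCGG was found in 7 of the 8, all except Junb (32.7% of all promoters), and the EGR site GCGGGGGCG, which can overlap the SP1 site, in 4 (Fosb, Zfp36, Nr4a1 and Klf4; 2.57%). A TATA box, TATAAA, stood 33 to 28 bases before the Fos start (12.4%), a CArG box before that of Zfp36 (1.47%), and the AP-1 site TGANTCA was in none of the 8 windows (6.75%). A match describes the letters in these windows only, and no match says nothing about the factor.

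The gene models used for the counts place Fos at chr12:85473890-85477273, Fosb at chr7:19302696-19310051, Jun at chr4:95049034-95052222, Junb at chr8:84974484-84978718 and Ier2 at chr8:84661331-84662852 on GRCm38. Zfp36 lies at chr7:28376784-28380253, Dusp1 at chr17:26505590-26562128, Nr4a1 at chr15:101254269-101274795 and Klf4 at chr4:55527143-55532466. The outer limits of the Dusp1, Nr4a1, Zfp36 and Fosb models reach past the RefSeq starts used for the windows above. Jun and Zfp36 overlap the antisense transcripts Junos and Gm44710, Junb overlaps Prdx2 and Dusp1 overlaps Ergic1, each on the opposite strand. The kit preserves strand, but the strand setting of the counting is not given in the sources used here, so the levels of these 4 genes could hold reads of their partners.

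The libraries held 27590631 to 41301707 gene counts (median 33684704), which gave Fosb, the lowest member, at least 13 counts and Fos at least 38 in every mouse. No pair of mice within a group agreed within sampling noise. Of the markers of prostate luminal epithelium, Pbsn, which encodes probasin, ranged over 123 to 7530 CPM (counts scaled to a common library total), the keratin gene Krt8 over 252 to 576 CPM and Hoxb13 over 202 to 639 CPM, and those of seminal vesicle summed to at most 0.276 CPM. The mice numbered 1 stood apart, since their profiles resembled each other across diets (mean r of their within-group deviations over all tested genes 0.401 at 12 weeks and 0.428 at 32 weeks, against −0.030 and 0.058 for mice sharing the numbers 2 to 5). Results that rest on those mice are therefore given with and without them.

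Per kilobase of exon, Zfp36 was the most abundant member (mean 15.5 CPM per kb over 30 mice), followed by Ier2 (14.9), Jun (14.1), Nr4a1 (8.43), Dusp1 (8.29), Egr1 (7.05), Junb (6.13), Klf4 (5.39), Fos (4.67) and Fosb (0.654). Zfp36 exceeded 84.5% of the tested genes on this scale and Fosb 23.1%. The range across mice ran in a different order. Fosb differed 40.2-fold and Fos 37.8-fold between the lowest and the highest of the 30 mice, Junb 17.2-fold, Dusp1 12.9-fold, Jun 12.2-fold and Egr1 11.9-fold, while Nr4a1, Ier2, Zfp36 and Klf4 differed 5.57-, 5.25-, 3.81- and 2.59-fold. Within groups, the SD of log2 CPM was 1.35 for Junb, 1.28 for Fosb and 1.11 for Fos, 0.671 to 0.758 for Jun, Ier2, Nr4a1, Egr1 and Dusp1, and 0.359 and 0.323 for Zfp36 and Klf4, against a median of 0.244 over all tested genes.

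Fos, the AP-1 subunit that is the best known of these genes, stood at 6.78, 17.02, 2.19, 7.42 and 18.9 CPM in LO mice 1 to 5 at 12 weeks, at 1.27, 5.60, 6.49, 2.42 and 1.74 CPM in SO mice and at 18.5, 8.96, 4.09, 3.95 and 14.2 CPM in PF mice. At 32 weeks the values were 12.7, 14.6, 32.2, 4.82 and 20.5 CPM on LO, 5.48, 7.71, 12.9, 4.85 and 5.91 CPM on SO and 12.6, 48.1, 19.9, 3.13 and 4.72 CPM on PF. SO mice at 12 weeks had the lowest Fos, with 4 of 5 LO mice and 3 of 5 PF mice above the highest SO mouse, yet the groups overlapped, and the highest value of all 30 mice was that of PF mouse 2 at 32 weeks.

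Fosb, another member of the Fos family, read 4.40, 4.17, 0.468, 1.90 and 10.7 CPM in LO mice 1 to 5 at 12 weeks, 0.671, 1.57, 1.84, 1.13 and 1.54 CPM on SO and 8.57, 2.69, 1.01, 0.718 and 11.01 CPM on PF. After 32 weeks it read 6.61, 3.51, 8.73, 1.38 and 3.43 CPM on LO, 1.91, 1.70, 3.34, 2.22 and 2.0 CPM on SO and 2.60, 18.8, 10.2, 0.994 and 2.67 CPM on PF. The SO mice lay close together at both times while the LO and PF mice spread wider, and every pair of diets overlapped.

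Jun, the partner of the Fos proteins, stood at 34.2, 63.9, 49.5, 70.9 and 171 CPM in LO mice 1 to 5 at 12 weeks, at 26.2, 14.3, 39.4, 24.1 and 26.6 CPM in SO mice and at 33.9, 80.8, 34.3, 64.8 and 96.3 CPM in PF mice. At 32 weeks it stood at 45.4, 49.9, 23.2, 19.5 and 31.1 CPM on LO, 42.2, 28.5, 29.3, 21.6 and 21.9 CPM on SO and 46.7, 47.8, 62.1, 33.2 and 14.1 CPM on PF. LO mouse 5 at 12 weeks was the highest of the 30, all SO mice at 12 weeks were below 4 of the 5 LO mice, and the 3 diets overlapped widely at 32 weeks.

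Junb, the AP-1 subunit that can oppose Jun, behaved otherwise. At 12 weeks it read 38.1, 7.58, 6.87, 7.24 and 10.7 CPM in LO mice 1 to 5, 37.4, 4.12, 4.77, 4.47 and 9.16 CPM on SO and 47.2, 11.1, 3.57, 12.3 and 9.42 CPM on PF. At 32 weeks it read 47.95, 7.45, 7.38, 3.38 and 4.71 CPM on LO, 35.6, 5.24, 7.46, 3.72 and 5.53 CPM on SO and 58.2, 8.70, 4.85, 5.26 and 3.52 CPM on PF. In every group the mouse numbered 1 was the highest: those 6 mice held 35.6 to 58.2 CPM and the other 24 held 3.38 to 12.3 CPM.

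Ier2 showed the same arrangement at a smaller scale. Its values at 12 weeks were 41.02, 20.7, 15.03, 18.4 and 29.2 CPM in LO mice 1 to 5, 40.6, 11.3, 14.1, 12.8 and 20.4 CPM in SO mice and 37.2, 25.8, 14.9, 23.7 and 22.8 CPM in PF mice. Those at 32 weeks were 45.96, 20.8, 21.2, 12.7 and 15.7 CPM on LO, 41.8, 13.95, 17.1, 10.7 and 13.5 CPM on SO and 56.3, 18.6, 18.3, 15.4 and 12.6 CPM on PF. The 6 mice numbered 1 spanned 37.2 to 56.3 CPM and the other 24 mice 10.7 to 29.2 CPM, without overlap.

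Of the other transcription factors, Egr1 ranged over 12.98 to 53.6 CPM on LO, 6.91 to 34.1 CPM on SO and 18.8 to 49.1 CPM on PF at 12 weeks, and over 16.02 to 53.8, 18.4 to 42.5 and 16.6 to 82.4 CPM at 32 weeks. Klf4 was the steadiest member, with 11.97 to 21.02 CPM on LO, 11.2 to 13.7 CPM on SO and 13.5 to 23.5 CPM on PF at 12 weeks and 12.8 to 22.9, 13.3 to 19.6 and 12.8 to 29.2 CPM at 32 weeks. The 3 diets overlapped at both times for both genes. The nuclear receptor Nr4a1 stood at 23.9, 33.4, 13.99, 19.9 and 71 CPM in LO mice 1 to 5 at 12 weeks, at 15.4, 14.8, 16.99, 14.2 and 14.9 CPM in SO mice and at 21.2, 23.04, 14.8, 18.9 and 77.4 CPM in PF mice. At 32 weeks it stood at 36.8, 40.03, 55.2, 15.9 and 34.7 CPM on LO, 21.9, 21.9, 39.1, 17.4 and 16.7 CPM on SO and 29.7, 77.98, 53.5, 18.5 and 14.9 CPM on PF. The SO mice of 12 weeks lay between 14.2 and 17.0 CPM, whereas mouse 5 stood above all other mice of its diet and time on both LO and PF.

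Of the brakes on the response, Zfp36 read 48.7, 73.04, 47.6, 67.5 and 113 CPM in LO mice 1 to 5 at 12 weeks, 42.9, 29.6, 46.6, 35.8 and 41.9 CPM in SO mice and 53.3, 72.7, 44.9, 52.9 and 77.8 CPM in PF mice. At 32 weeks it read 53.5, 66.7, 52.6, 34.8 and 59.3 CPM on LO, 50.4, 43.2, 46.9, 39.2 and 37.5 CPM on SO and 59.9, 70.4, 66.7, 44.1 and 35.4 CPM on PF. All 5 LO mice of 12 weeks were above all 5 SO mice, as for 0.422% of 16605 genes in this pair, time and direction. Zfp36 was the only member with such a separation when all pairs of diets at both times were looked over. The share of all genes separated in any of these pairs is not given here. Dusp1 stood at 11.8, 45.1, 21.4, 50.99 and 101 CPM in LO mice 1 to 5 at 12 weeks, at 7.78, 8.68, 18.4, 15.7 and 15.4 CPM in SO mice and at 14.97, 42.99, 22.1, 31.6 and 59.3 CPM in PF mice. At 32 weeks it stood at 17.8, 36.1, 27.6, 13.4 and 27.1 CPM on LO, 12.8, 19.2, 25.1, 15.4 and 14.4 CPM on SO and 20.5, 52.99, 41.2, 17.9 and 14.8 CPM on PF. Mouse 1 was the lowest of its group on all 3 diets at 12 weeks.

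**Figure D1:**
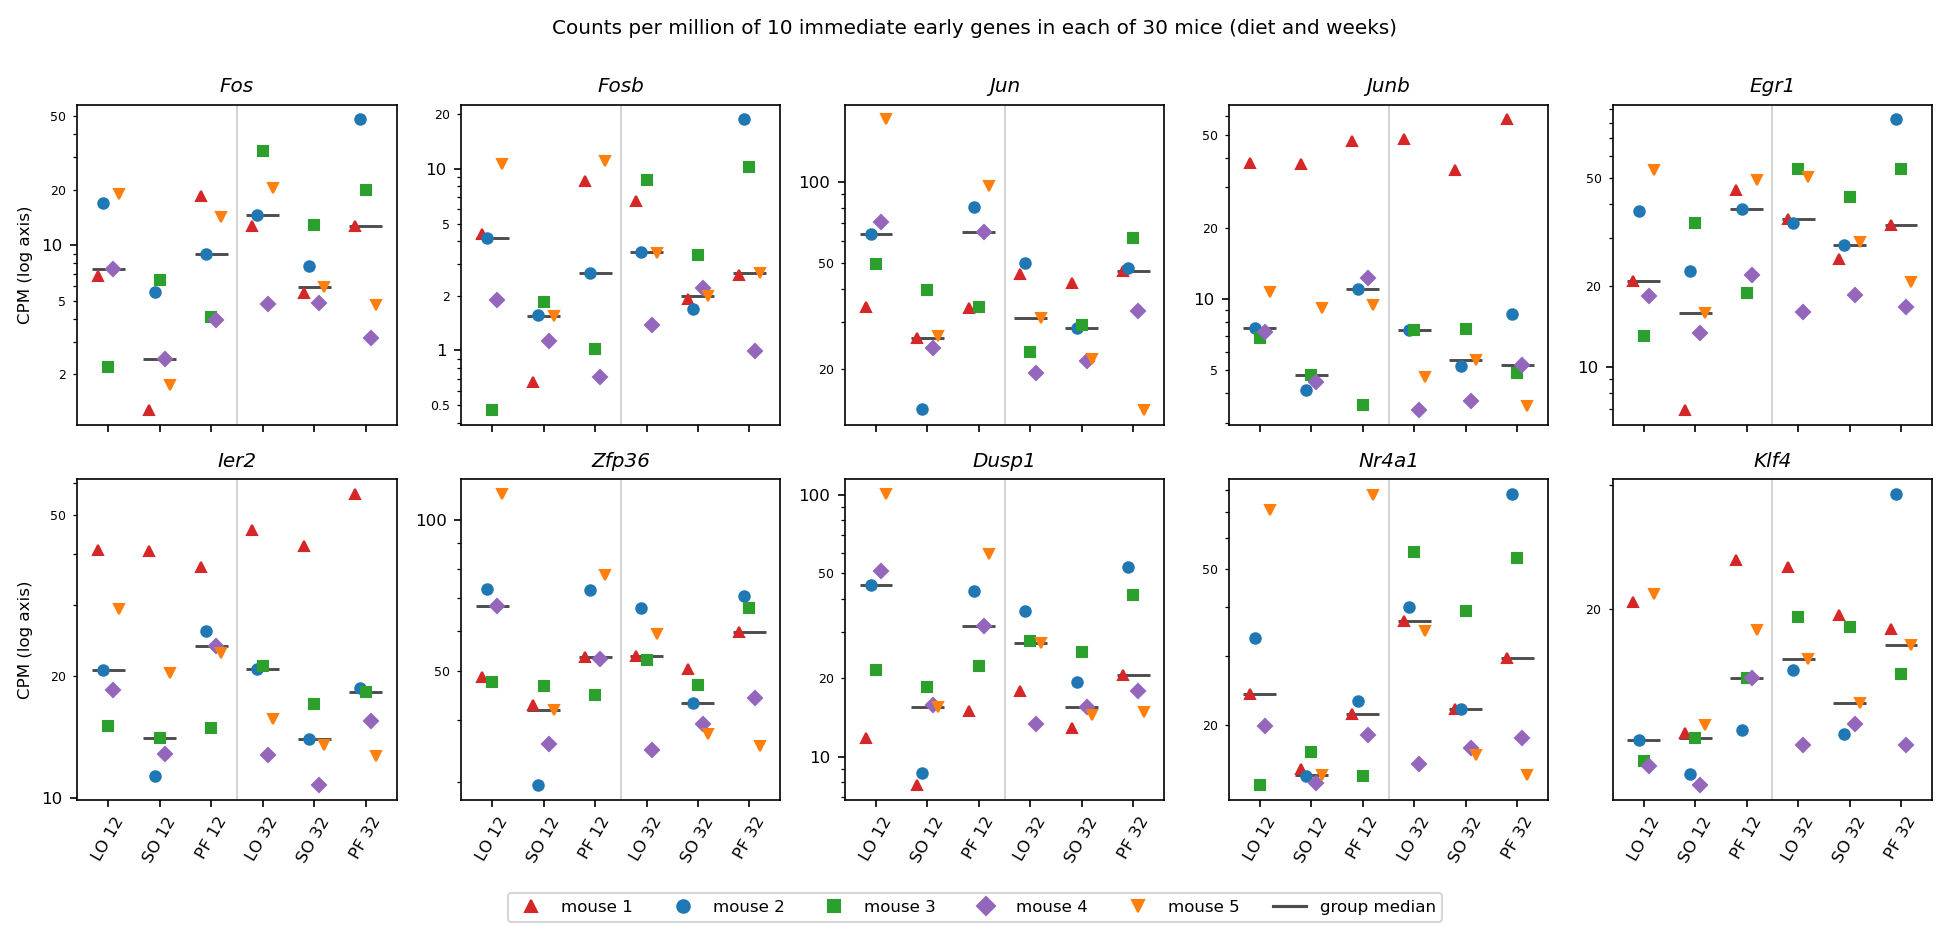
Level of each of the 10 immediate early genes (CPM, logarithmic axis) in every mouse, by diet and time point, with a symbol for each mouse number and a bar at the group median. The mice numbered 1 lie above all others for Junb (35.6 to 58.2 against 3.38 to 12.3 CPM) and Ier2 (37.2 to 56.3 against 10.7 to 29.2 CPM), and for no other member.

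Ordered by group median, SO at 12 weeks was the lowest of the 6 groups for Fos, Fosb, Jun, Junb, Egr1, Zfp36 and Nr4a1, 7 of the 10 members. The share of all genes that were lowest in that group is not given here. The members also moved together within groups, as described below, so these 7 are not counts of independent genes. The ratio of the highest to the lowest group median was 6.02 for Fos (14.6 CPM on LO at 32 weeks against 2.42 CPM on SO at 12 weeks), 2.92 for Dusp1, 2.70 for Fosb, 2.48 for Jun, 2.47 for Nr4a1, 2.43 for Egr1 and 2.32 for Junb. It was 1.70 for Ier2, 1.61 for Zfp36 and 1.37 for Klf4. Neighbours in the order of medians overlapped in all 50 cases (5 neighbouring pairs for each member). For Junb and Ier2 this followed from the mice numbered 1, which were above all other mice. Groups next to each other in median overlap easily, and the share over all genes is not given here, so no conclusion is drawn.

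The diets were compared pairwise at each time, as in the study. For PF against SO at 12 weeks, all 10 members had positive log2 fold changes (median 0.97, against −0.01 over all tested genes), and 0 of them passed an adjusted p-value under 0.05 in edgeR's quasi-likelihood test, as did 0% of the 15873 genes tested. At an unadjusted p-value under 0.05, 7 members were higher on PF, against 6.14% of all genes. The members moved together within groups (median r 0.549, described below), so a few mice can shift many of them at once. Here and in the comparisons that follow, counts of members or of positive values are therefore not counts of independent genes. Jun had the smallest p-value, with a log2 fold change of 1.26 (SE 0.41, edgeR adjusted p = 0.296), followed by Zfp36 (0.62, SE 0.22, adjusted p = 0.366) and Dusp1 (1.38, SE 0.50, adjusted p = 0.370). Klf4 (0.48, SE 0.17, adjusted p = 0.377), Fos (1.505, SE 0.60, adjusted p = 0.476), Fosb (1.83, SE 0.76, adjusted p = 0.518) and Nr4a1 (1.03, SE 0.46, adjusted p = 0.566) completed the 7. The value of Nr4a1 was 0.36 without PF mouse 5 (adjusted p = 0.954), and leaving out 1 mouse at a time left 4 to 8 members at an unadjusted p under 0.05. Among the mice numbered 2 to 5, 4 members remained at that level.

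LO against SO at 12 weeks gave positive values for all 10 members as well (median 0.96, against 0.00 over all genes), again with 0 members and 0% of all genes past the adjusted threshold. At an unadjusted p under 0.05, 6 members were higher on LO, against 2.52% of all genes. These were Jun (1.58, SE 0.42), Zfp36 (0.83, SE 0.22), Dusp1 (1.80, SE 0.50), Fos (1.58, SE 0.60), Nr4a1 (1.09, SE 0.46) and Fosb (1.67, SE 0.76), each with an adjusted p of 0.999. LO mouse 5 carried part of it: without that mouse Fosb came to 1.01, Nr4a1 to 0.59, and 3 members remained under 0.05. Both comparisons use the same 5 SO mice and are not independent of each other. PF against LO at 12 weeks, which does not use them, gave 5 positive and 5 negative values (median −0.03) and 0 members at either threshold, against 0% and 9.24% of all genes, and Zfp36 had the smallest p (−0.21, SE 0.22, adjusted p = 0.833).

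At 32 weeks the 10 members were again positive for PF against SO (median 0.54), with 0 members and 0% of 16218 genes past the adjusted threshold and 2 members higher at an unadjusted p under 0.05, against 5.71% of all genes. Fosb differed by 1.66 (SE 0.66, adjusted p = 0.411) and Dusp1 by 0.77 (SE 0.35, adjusted p = 0.451). Both rested on PF mouse 2, without which they came to 0.89 and 0.46 (adjusted p = 0.516 and 0.548). LO against SO had 10 positive values (median 0.37) and 0 members at either threshold, against 0% and 3.48% of all genes, with Fos nearest (1.21, SE 0.63, adjusted p = 0.9997). PF against LO had 10 positive values (median 0.12), 0 members at either threshold against 0% and 8.6% of all genes, and Fosb nearest (0.57, SE 0.64, adjusted p = 0.850), a value that turned to −0.21 without PF mouse 2. DESeq2, run as a second tool, called 0 members in each of the 6 diet comparisons, while over all genes it called 221 for PF against SO, 76 for PF against LO and 0 for LO against SO at 12 weeks, and 109, 84 and 6 at 32 weeks.

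**Figure D2:**
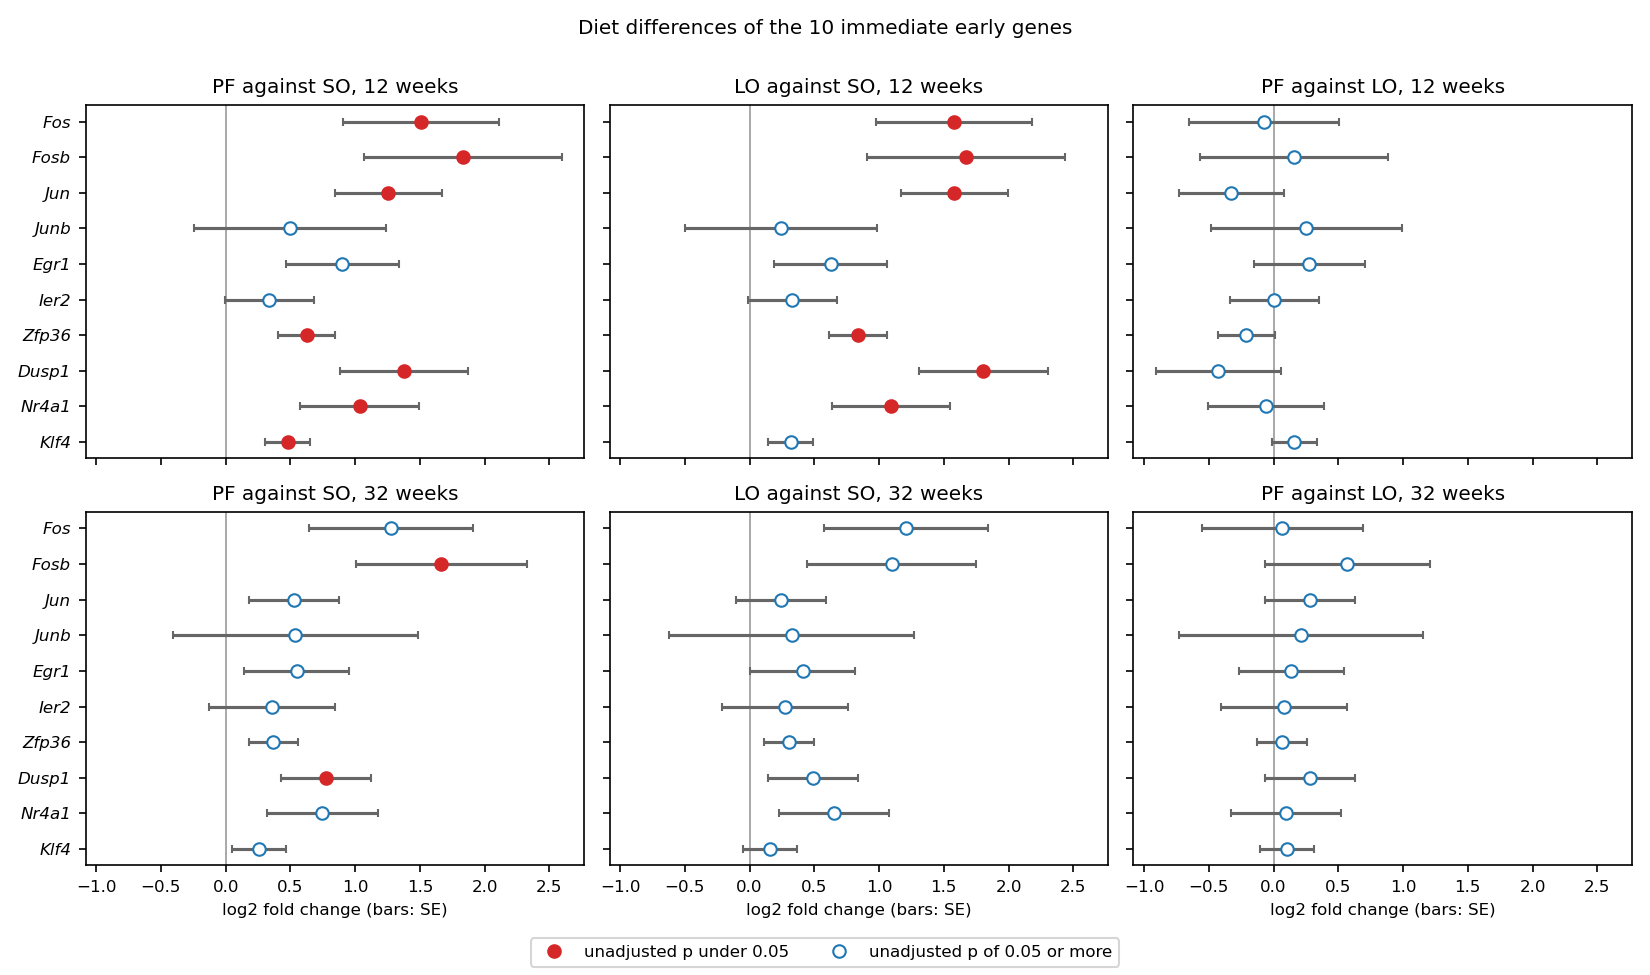
Log2 fold change of each immediate early gene between diets at 12 and 32 weeks, with the SE as a bar (filled points, unadjusted p under 0.05). PF and LO lie above SO for all 10 members at both times, from 0.24 to 1.83 at 12 weeks and from 0.16 to 1.66 at 32 weeks, and 0 members passed the adjusted threshold.

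Other genes of the response were followed with a list of 64 further immediate early and early response genes, of which 58 were tested at 12 weeks. None of them was called between diets in edgeR, which called 0% of all genes in each of these comparisons. The absence of calls would hold for any list of genes. At an unadjusted p under 0.05, 18 of the 58 were higher on PF than on SO at 12 weeks and 0 lower (median of the list 0.32; 6.14% of all genes were higher). On LO, 16 were higher than on SO and 0 lower (median 0.28; 2.52% of all genes higher). For PF against LO, 4 were higher and 0 lower (9.24% of all genes in either direction). At 32 weeks, of 59 tested, 2 were higher and 1 lower on PF than on SO (5.71% of all genes higher). For LO against SO, 0 were higher and 1 lower (3.48% in either direction). For PF against LO, 4 were higher and 1 lower (8.6% in either direction). The kinases and transcription factors upstream of these genes (28 tested, among them Egfr, Map2k2, Srf and Elk4) had 0 calls between diets, as had 14 heat-shock genes and 16 hypoxia-response genes, of which 5 were higher on PF than on SO at 12 weeks at an unadjusted p under 0.05.

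No marker of leukocytes passed the adjusted threshold between diets in edgeR, and neither did any other gene (0% of all tested genes). The absence of calls is therefore no result about these markers, and their calls in DESeq2 are not given here. The levels at 12 weeks were as follows. Macrophage and leukocyte markers summed to 83.5 to 135 CPM in SO mice of 12 weeks, 88.4 to 204 CPM in LO mice and 133 to 283 CPM in PF mice, and 6 of the 7 were higher on PF than on SO at an unadjusted p under 0.05 (6.14% of all genes; 3 of 7 for LO against SO, 2.52%), with none at 0 in every mouse. T cell markers summed to 2.11 to 3.82 CPM on SO, 2.08 to 9.50 CPM on LO and 3.21 to 11.6 CPM on PF (5 of 6 and 1 of 6 at that level). B cell markers spanned 1.47 to 4.68 CPM on SO, 2.05 to 21.7 CPM on LO and 2.04 to 36.2 CPM on PF. Fibroblast markers summed to 713 to 936 CPM on SO, 617 to 1118.5 CPM on LO and 945 to 1408 CPM on PF. Endothelial markers summed to 48.3 to 58.5 CPM on SO, 43.9 to 72.6 CPM on LO and 54.6 to 84.6 CPM on PF. Of these endothelial markers, 4 of 6 were higher on PF than on SO at an unadjusted p under 0.05. The part of these cell types in the differences of the immediate early genes was not tested.

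Between 12 and 32 weeks, edgeR called 0 members on any diet, while DESeq2 called 1, Jun on LO. On LO, the median of Jun was 63.9 CPM at 12 weeks and 31.1 CPM at 32 weeks, a log2 difference of −1.20 (SE 0.40, adjusted p = 0.0838), and that of Dusp1 45.1 and 27.1 CPM (−0.92, SE 0.45, adjusted p = 0.242). These were the 2 members lower at an unadjusted p under 0.05, against 9.14% of 16605 genes, and 2.7% of genes passed the adjusted threshold. Without LO mouse 5 of 12 weeks they came to −0.67 and −0.39 (adjusted p = 0.304 and 0.661). On SO, 8 of 10 members had positive values but 0 reached an unadjusted p under 0.05 (19.7% of genes; 6.46% past the adjusted threshold), with Klf4 nearest (0.35, SE 0.20, adjusted p = 0.350). On PF 0 members reached it (10.2% of genes; 0.0301% past the adjusted threshold), with Jun nearest (−0.61, SE 0.40, adjusted p = 0.625). Diet differences did not pass the test of a change with time for any member (0% of genes past the adjusted threshold and 7.95% at an unadjusted p under 0.05), Jun having the smallest p-value (0.0751, adjusted p = 0.676).

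The wider list of early genes gave some calls with time. On LO 3 of 60 were called, against 2.7% of all genes: Dusp6 rose by 0.65 (SE 0.11, adjusted p = 0.00634) and Zfp36l2 by 0.63 (SE 0.16, adjusted p = 0.0284), while Ppp1r15a, a stress-induced phosphatase subunit, fell by 0.65 (SE 0.17, adjusted p = 0.0382). Leaving out 1 mouse at a time, Dusp6 kept the call in all 10 fits, Zfp36l2 lost it in 5 (adjusted p up to 0.0996, without LO mouse 3 of 12 weeks) and Ppp1r15a in 8 (up to 0.118, without LO mouse 5 of 12 weeks). The basal epithelium markers Krt15 (1.24, edgeR adjusted p = 0.00464), Trp63 (0.64, 0.0123) and Krt5 (0.90, 0.0174) also rose on LO. Krt15 and Trp63 kept the call in all 10 fits and Krt5 lost it in 1. The part of these cells in the changes on LO was not tested. On SO, 8 of 60 tested genes rose (6.46% of all genes were called), among them Dusp6 (0.49), Dusp2 (2.12), Id2 (0.54) and Nfkbiz (0.65), and none fell. Without SO mouse 4 of 32 weeks, these 4 had adjusted p of 0.0503, 0.0787, 0.0716 and 0.0731 and lost the call. All 6 T cell markers, all 4 B cell markers and 4 of 7 macrophage and leukocyte markers rose in the same comparison, and their part in it was not tested. Without SO mouse 4 of 32 weeks, 10 of these 14 markers lost the call as well (adjusted p = 0.0626 for Adgre1 to 0.221 for Cd4). Cd3d, Cd3g, Cd8a and Ptprc kept it. Krt15 (0.72), Trp63 (0.44) and the endothelial marker Emcn (0.84) also rose on SO, and lost the call without that mouse. On PF, 0 of 60 were called. Among hypoxia-response genes, Ndrg1 (0.48) and Egln3 (0.52) rose on LO and Egln3 (0.54) on SO, and no heat-shock gene was called. Upstream of the members, Egfr rose by 0.58 and Mapk9 fell by 0.35 on LO, and Map3k1 rose by 0.35 on SO. Each of these calls of hypoxia-response and upstream genes was lost in 4 to 8 of 10 fits that left out 1 mouse. The adjusted p was 0.0779 to 0.149 without LO mouse 3 of 32 weeks for Egfr, Mapk9 and Ndrg1. It was 0.143 without LO mouse 3 of 12 weeks for Egln3 on LO, and 0.0903 and 0.125 without SO mouse 4 of 32 weeks for Egln3 and Map3k1 on SO.

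Within groups, mice that were high in one member tended to be high in others. The deviation of each mouse from its group mean in log2 CPM was correlated across the 30 mice for the 45 pairs of members, and the median r was 0.549, against −0.005 over all pairs of tested genes. For 25 pairs r was positive with a permutation p under 0.05 after Benjamini-Hochberg adjustment over the 45 (27 by Spearman's rho). Since the mice numbered 1 stood apart for Junb and Ier2, pairs with these genes are given in the 24 mice numbered 2 to 5. In those 24 mice, the median r was 0.731 (−0.0055 over all pairs of genes), 42 of 45 pairs passed (43 by rho) and no pair was negative. These mice were chosen after the difference by number was seen in the same data, so the rise follows in part from that choice. The permutations treated the mice of a group as independent. With the mean of each number removed in the 30 mice, r ran from −0.27 (Fosb with Ier2) to 0.97 (Zfp36 with Dusp1).

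Fos and Egr1 moved together most closely, with r = 0.95 and rho = 0.93 in 30 mice (permutation p = 1e-05 for r, the smallest that 100000 permutations can give) and r = 0.94 without the 2 mice farthest from the median. Jun and Zfp36 followed with r = 0.90 (rho = 0.88, permutation p = 1e-05; 0.86 without the 2 farthest mice). Fos and Fosb gave r = 0.87 (rho = 0.79, permutation p = 1e-05; 0.82), Fosb and Nr4a1 r = 0.83 (rho = 0.73, permutation p = 2e-05; 0.79) and Zfp36 and Dusp1 r = 0.81 (rho = 0.80, permutation p = 3e-05; 0.76). Over the 28 pairs without Junb and Ier2, r ran from 0.105 to 0.951 with a median of 0.656, and 22 pairs passed (21 by rho). The weakest were Dusp1 with Klf4 (0.105) and Jun with Klf4 (0.21), which came to 0.66 and 0.41 in the mice numbered 2 to 5. The median of these 28 pairs was 0.581 at 12 weeks, 0.771 at 32 weeks, and 0.625 with the mean of each number removed.

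Junb and Ier2 moved closely together, with r = 0.90 and rho = 0.91 in the 24 mice numbered 2 to 5 (permutation p = 1e-05; 0.88 without the 2 farthest mice). With the other 8 members, their median r was 0.610 in the same 24 mice and 0.205 when the mice numbered 1 were included. The 28 pairs among those 8 had medians of 0.804 and 0.656. In the 24 mice Ier2 was also close to Zfp36 (r = 0.80). Junb with Dusp1 reversed from 0.65 in the 24 mice to −0.29 in the 30, and Ier2 with Dusp1 from 0.79 to −0.16. These were the 2 negative values among the 45 pairs.

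**Figure D3:**
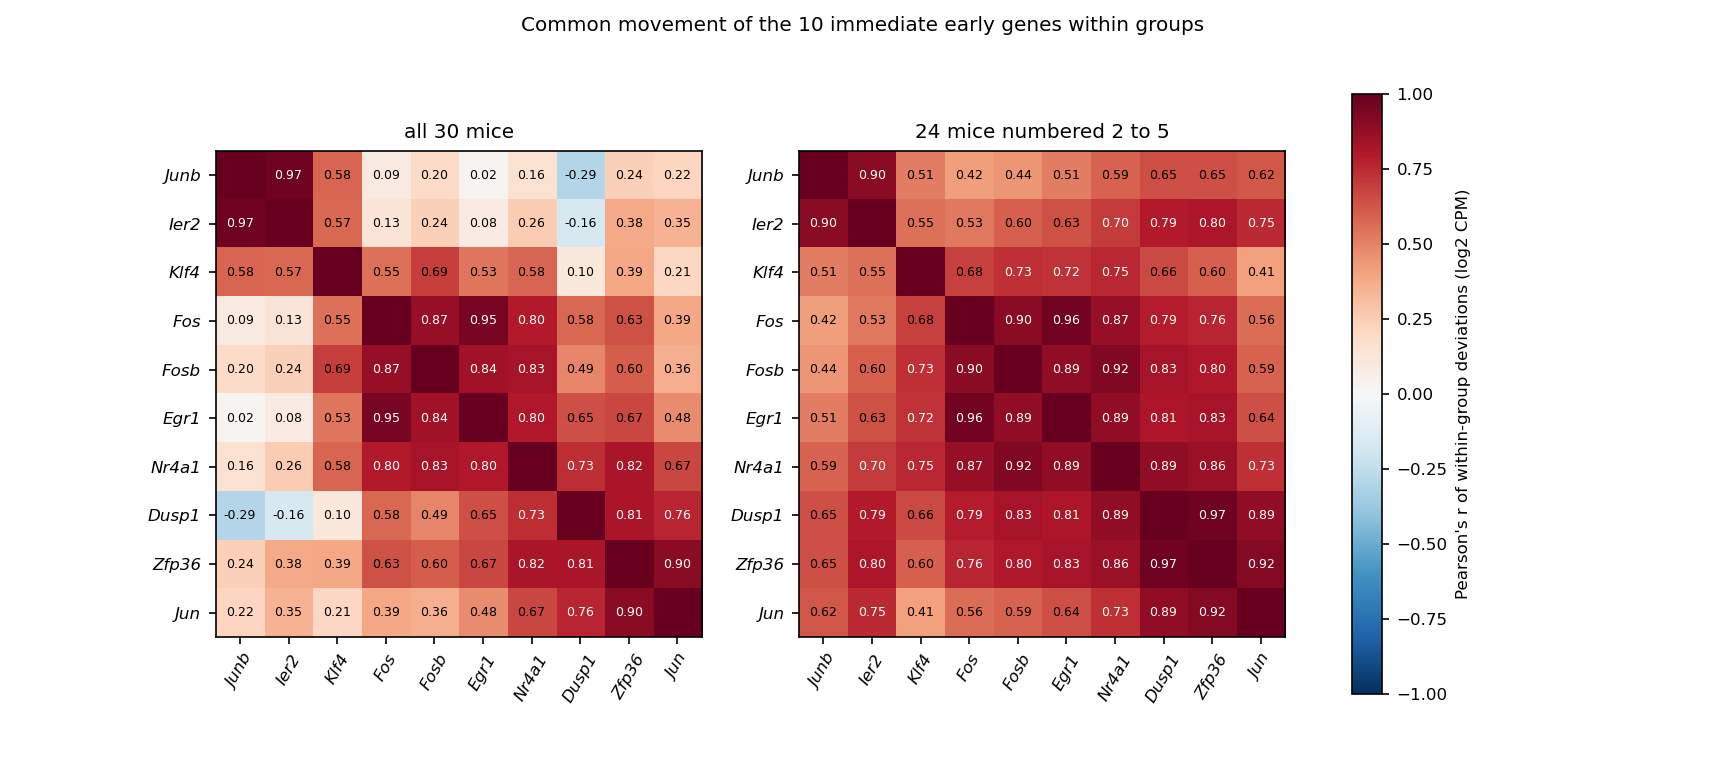
Pearson r between the within-group deviations of log2 CPM for each pair of immediate early genes, in the 30 mice and in the 24 mice numbered 2 to 5. All pairs are positive in the 24 mice (median 0.731), while Junb and Ier2 stand apart from the others in the 30 mice (median 0.205 with the other 8 members).

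The mice that carried this movement can be read from the mean deviation of the 8 members other than Junb and Ier2, on the log2 scale. At 12 weeks it was −0.34, 0.33, −1.03, −0.17 and 1.20 in LO mice 1 to 5, −0.45, −0.02, 0.55, −0.10 and 0.02 in SO mice, and 0.18, 0.14, −0.71, −0.50 and 0.89 in PF mice. At 32 weeks it was 0.16, 0.20, 0.45, −0.97 and 0.15 on LO, 0.01, −0.03, 0.49, −0.28 and −0.20 on SO, and −0.06, 1.15, 0.63, −0.90 and −0.82 on PF. Mouse 5 was the highest on LO and PF at 12 weeks. At 32 weeks mouse 4 was the lowest and mouse 3 above its group mean on all 3 diets, and the SO mice spread least at both times.

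**Figure D4:**
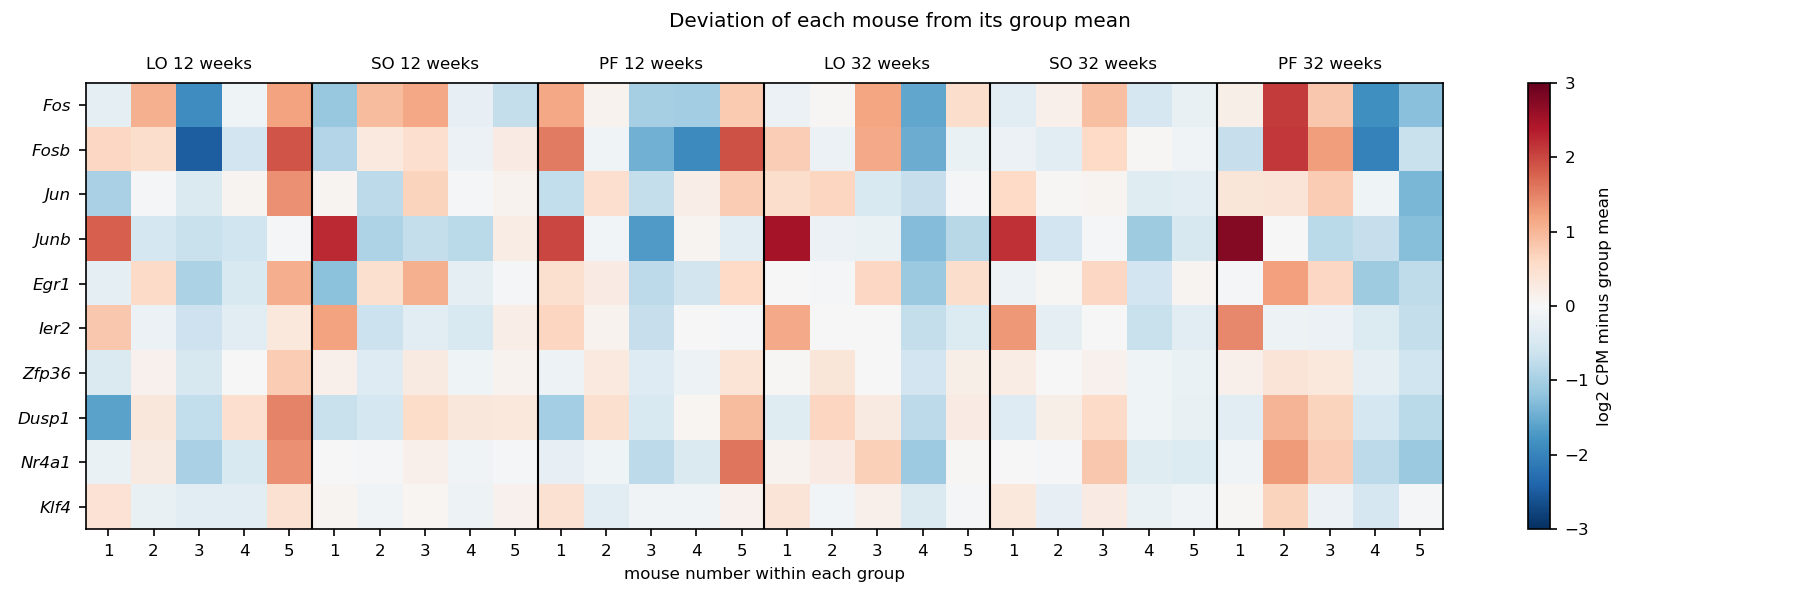
Deviation of each immediate early gene from its group mean (log2 CPM) in each of the 30 mice, grouped by diet and time point. Columns of one colour are mice in which most members were high or low together, such as LO mouse 5 at 12 weeks (mean of 8 members 1.20) and PF mouse 2 at 32 weeks (1.15).

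Levels also followed the number of the mouse. In a fit of diet and number at 12 weeks, 2 members, Junb and Ier2, differed between numbers (adjusted p = 0.00182 and 0.0158 in edgeR's quasi-likelihood F test), against 3.53% of all genes. At 32 weeks 4 members did, Junb and Ier2 (adjusted p = 4.89e-05 for both), Dusp1 (0.0392) and Nr4a1 (0.0498), against 10.9% of all genes. Dusp1 and Nr4a1 lost the call in 11 of the 15 fits that left out 1 mouse, with adjusted p up to 0.101 and 0.134. Ier2 at 12 weeks lost it without the mouse numbered 1 of any diet (adjusted p = 0.0557 to 0.129).

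The mice numbered 1 were then set against the mean of the numbers 2 to 5. At 12 weeks, Junb was 2.46 log2 units higher (SE 0.21, adjusted p = 7.72e-05) and Ier2 1.08 higher (SE 0.16, adjusted p = 0.00132), Klf4 was higher by 0.38 (SE 0.11, adjusted p = 0.0466) and Dusp1 lower, at −1.45 (SE 0.36, adjusted p = 0.0210), so that 4 members were called, against 15.3% of all genes. At 32 weeks 2 members were called, Junb (3.15, SE 0.19, adjusted p = 2.06e-06) and Ier2 (1.66, SE 0.10, adjusted p = 2.06e-06), against 22.5% of all genes, and Jun had an unadjusted p of 0.0411 (0.61, SE 0.26, adjusted p = 0.126). Dusp1 at 12 weeks lost the call without LO mouse 1 (−1.16, adjusted p = 0.148) or PF mouse 1 (−1.52, adjusted p = 0.0850), and Klf4 in 10 of 15 such fits. All 6 mice numbered 1 were above the other 24 mice for Junb and Ier2, as for 4.52% of 16605 genes, and all 6 were below them for 0 members and 0.277% of genes. The contrast was examined because mice numbered 1 were already known to stand apart in these data.

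GC content moved with this contrast. Across tested genes, Spearman's correlation between the GC content of the longest transcript and the log2 difference of the mice numbered 1 was 0.552 at 12 weeks and 0.613 at 32 weeks, a description across genes, which are not independent replicates. Junb (62.6% GC) and Ier2 (60.9%) were the most GC-rich members, Egr1, Nr4a1, Fosb, Jun, Klf4, Zfp36 and Dusp1 lay between 57.3% and 54.0%, and Fos was at 51.9%. Genes within 1 GC point of Junb had a median difference of 0.77 at 12 weeks (173 genes) and 0.99 at 32 weeks (175 genes), and all of them were below Junb. Those near Ier2 had medians of 0.68 and 0.86, and 87.5% of 392 genes and 95.2% of 397 genes were below it. Dusp1 at 12 weeks was lower than nearly all genes of its GC content, 1.04% of which were below it. The same held at 12 weeks for Jun (1.58%), Egr1 (1.98%) and Nr4a1 (2.53%), with Zfp36 at 6.94%. Fos, Klf4 and Fosb had 63.4%, 84.6% and 94.5% of such genes below them at 12 weeks. At 32 weeks the shares were 3.724% for Dusp1, 6.357% for Egr1, 8.249% for Nr4a1, 10.04% for Fosb and 15.35% for Fos. They were 55.35% for Zfp36, 69.97% for Klf4 and 84.65% for Jun. The positions of Jun, Zfp36, Fosb and Fos therefore did not hold across the times. With an offset for GC content in the fit, Junb remained called (1.79 and 2.25, adjusted p = 0.000413 and 2.75e-05), Ier2 remained called at 32 weeks (0.76, adjusted p = 0.000653) and not at 12 weeks (0.39, adjusted p = 0.247), and Dusp1 at 12 weeks was at −1.55 (adjusted p = 0.0434).

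**Figure D5:**
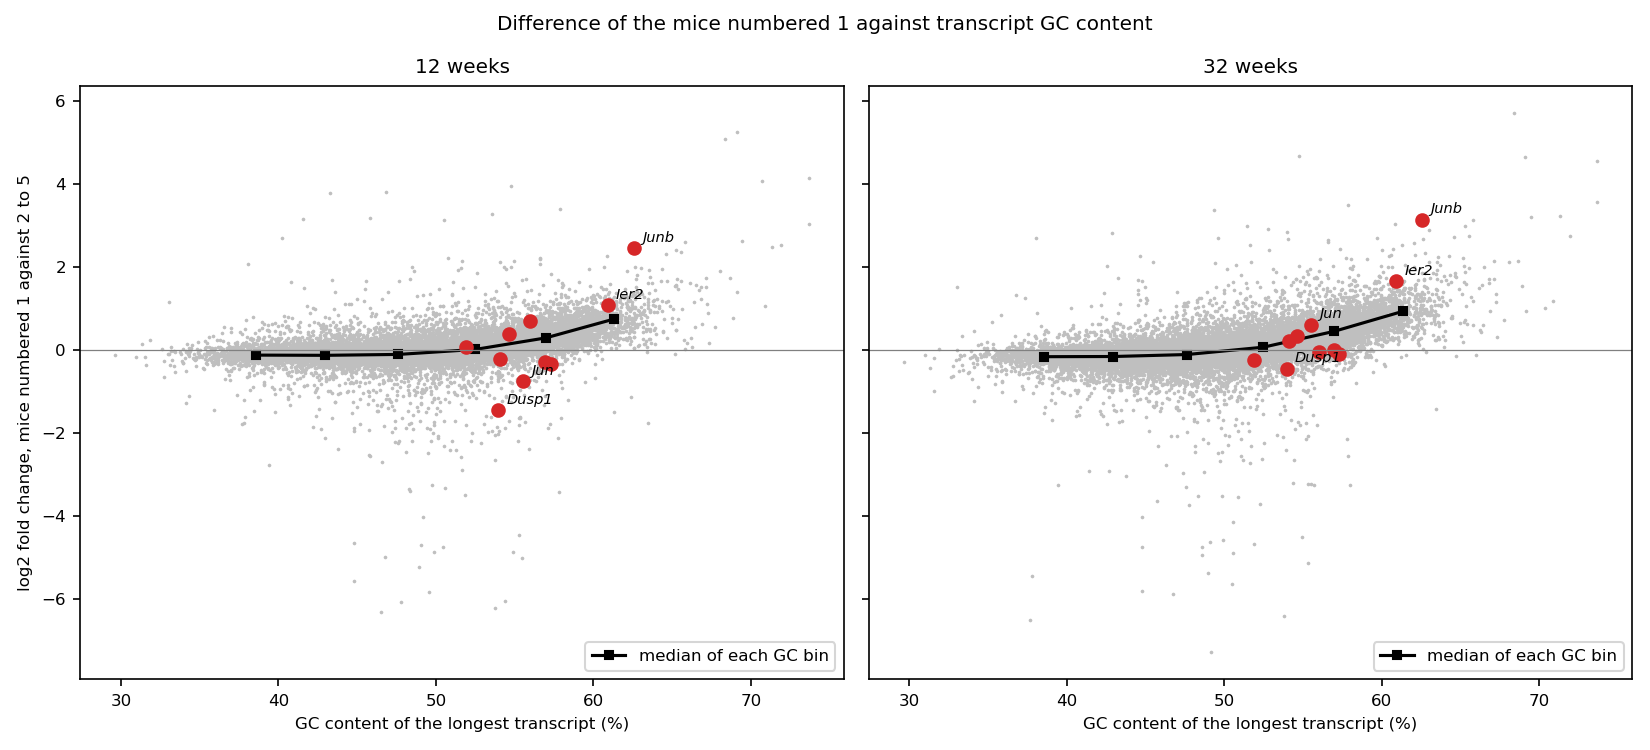
Log2 difference of the mice numbered 1 from the mice numbered 2 to 5 against the GC content of the longest transcript (%), at 12 and 32 weeks, for the 10 immediate early genes (points; Junb, Ier2, Dusp1 and Jun labelled) and for all tested genes (grey dots, single genes; squares, the median of each GC bin). Junb (2.46 and 3.15) lies above the trend of all genes. Among the members below the trend at 12 weeks are Dusp1 (−1.45), Jun (−0.75), Egr1 (−0.35) and Nr4a1 (−0.28). At 32 weeks Dusp1 (−0.45), Egr1 (−0.09) and Nr4a1 (−0.01) are below it and Jun (0.61) is above it.

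Other early genes were called in the same contrast. At 12 weeks 17 of 58 were called (15.3% of all genes), 14 higher and 3 lower, led by Jund (1.74, adjusted p = 7.72e-05), the remaining Jun family member, Cebpd (1.98), Cebpb (1.51) and Gadd45g (1.27), whereas Btg2 (−1.26), Rgs1 (−1.46) and Atf3 (−2.19) were lower. The last 3 were chosen for naming after their values were seen, and without LO mouse 1 they lost the call (adjusted p = 0.186, 0.209 and 0.227). At 32 weeks 15 of 59 were called, a share near that of all genes (22.5%), all higher, led by Jund (2.14), Gadd45g (1.79), Cebpd (2.53) and Rhob (0.65). Of the 28 upstream genes 7 were called at 12 weeks (5 higher) and 12 at 32 weeks (8 higher), against the same 15.3% and 22.5% of all genes, and Srf, the serum response factor, was higher at both (0.45 and 0.78). The heat-shock genes Hspa1a (1.10 and 1.54), Hspa1b (1.11 and 1.44), Hspb1 and Bag3 were higher at both times, 4 of 14 tested against the same background. Hspa1a, Hspb1 and Bag3 lost the call at 12 weeks without LO mouse 1 (adjusted p = 0.0525, 0.0582 and 0.263). Of the hypoxia-response genes 1 of 16 was called at 12 weeks, Bnip3 (−0.37; adjusted p = 0.289 without PF mouse 1), and 4 at 32 weeks. Smooth muscle markers summed to 1997 to 2862 CPM in the mice numbered 1 and to 1401 to 2411 CPM in the others, and 3 and 4 of 6 were called higher. The part of these differences, and of GC content, in the levels of Junb and Ier2 was not tested further.

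Genes outside the members were ranked by the r of their within-group deviations with the members' mean deviation over the 30 mice. The 10 most alike were Sik1 (0.87), Ccn1 (0.80), Ier3 (0.78), Thbs1 (0.77), Egr2 (0.75), Arl4d (0.73), Fosl2 (0.72), Zfp36l1 (0.72), Ptgs2 (0.72) and Gem (0.71), and 8 of them, all except Arl4d and Gem, stood on the list of other early genes. In the 24 mice numbered 2 to 5 their r ran from 0.73 for Zfp36l1 to 0.95 for Ccn1, which encodes a matricellular protein. The 3 least alike were Gm13648 (−0.70), Mrpl40 (−0.65) and C730034F03Rik (−0.64). All points share the library and its scaling, and no p-value is given for a measure ranked over 16605 genes.

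By list, the 60 tested other early genes had a median r of 0.434 with the members' mean, 56 above 0 and 22 above 0.5, against a median of 0.005 and 124 genes above 0.5 among all 16605. The upstream kinases and transcription factors had a median of −0.03, heat-shock genes 0.03 and hypoxia-response genes −0.02. Above 0.5 were 2 of 14 heat-shock genes (highest 0.71), 0 of 28 upstream genes and 0 of 16 hypoxia-response genes. Of the cell type markers, basal epithelium had a median of 0.27, fibroblasts 0.26, endothelium 0.24, smooth muscle 0.22, macrophages and leukocytes 0.20, T cells 0.03, B cells 0.02, adipocytes 0.05, red blood cells 0.15, skeletal muscle 0.34 and neural tissue 0.31. None of these marker lists reached the median of the other early genes, and the part of cell composition in the common movement was not tested.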

How the data were processed

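RNA from the ventral prostate of 30 mice was sequenced from TruSeq Stranded mRNA libraries. Per the labels, the authors aligned reads with TopHat2 to GRCm38.p6, counted them with HTSeq and used DESeq2; the strand setting and annotation release are not given in the sources used here. The deposited values were raw counts per gene identifier, 1 table per mouse, without normalization, and 37607 of 39179 identifiers were matched to a symbol. Entries that name no gene (23.7% to 32.2% of reads) were left out. Groups and numbers came from the sample titles. Totals of 27590631 to 41301707 counts set the precision.

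Genes were filtered by edgeR's filterByExpr, scaled by TMM and tested with edgeR 4.0.16 (R 4.3.3; quasi-likelihood, two-sided), with Benjamini-Hochberg adjustment over all tested genes (15873, 16218 or 16605) and a threshold of 0.05. The 3 diets of a time point shared a fit of 15 mice, and time contrasts and the interaction used all 30. The number of the mouse was tested in a fit of diet and number. Log2 CPM used a prior count of 2. Correlations used Python 3.11.15 with 100000 permutations within groups. The code was tested on simulated data. DESeq2 1.42.0, size factors, filters, a replicate block and leaving out each mouse were alternatives.

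Members with an unadjusted p under 0.05, or else the smallest p, are named with their values; of other lists, up to 4 called genes per comparison. The members and lists were chosen with earlier results of these data known. Same-numbered mice resembled each other in part: 5 of 15 pairs at 12 weeks and 10 of 15 at 32 weeks correlated above 0.1. Their mean r was 0.056 and 0.132, against −0.014 and −0.029 for mice of different numbers. Only 3 of 15 mice at 12 weeks and 6 of 15 at 32 weeks correlated best with their own number. The main diet fits therefore did not use the number.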

Additional observations from a re-analysis of the deposited data

Results flagged for a closer look

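In 3 of the 60 groups of 5 mice (10 members in 6 groups), 1 mouse stood apart by Dixon's ratio on log2 CPM, above the critical value for groups of this size, and chance alone passes it in about 1 of 20 groups. For Junb this was LO mouse 1 at 12 weeks, with 38.1 CPM against 6.87 to 10.7 CPM in the other 4 mice (ratio 0.741). For Ier2 it was PF mouse 1 at 32 weeks, with 56.3 CPM against 12.6 to 18.6 CPM (ratio 0.74). For Nr4a1 it was PF mouse 5 at 12 weeks, with 77.4 CPM against 14.8 to 23.0 CPM (ratio 0.731). Both Junb and Ier2 were highest in the mouse numbered 1 of every group, so the first 2 cases repeat the difference by number given above.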

How the results depend on the processing

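No member passed the adjusted threshold between diets, with time or in the interaction in any fit that left out 1 mouse (0 to 0). DESeq2 with the replicate block, chosen after seeing the data, called 1 member each for PF against SO (Klf4) and LO against SO (Dusp1) at 12 weeks and for LO with time (Jun), the last also called by DESeq2 alone (1). Same-numbered mice resembled each other only in part, as described above, so fits with and without the block are both given. The replicate block in edgeR called 0 members in the 10 diet and time comparisons, and the median r with the block was 0.524. For mouse numbers DESeq2 called 5 members at 12 weeks and 7 at 32 weeks. The GC offset, also chosen after seeing the data, called 1 and 2, and 2 for mice numbered 1 at 12 weeks. Leaving out 1 mouse gave 1 to 4 and 2 to 6 members for numbers, and 2 to 4 and 2 to 3 for mice numbered 1, at 12 and 32 weeks. The median r of 45 pairs was 0.392 at 12 weeks alone and 0.464 to 0.731 over left-out mice or numbers. Zfp36 in PF against LO at 12 weeks ran from −0.32 without LO mouse 1 to 0.029 without LO mouse 5, and Fosb in PF against LO at 32 weeks from −0.21 without PF mouse 2 to 0.91 without LO mouse 3. The cause was not tested for any of these.

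Over all genes, edgeR called 0 in each diet comparison (131 for PF against SO at 12 weeks without PF mouse 5). In the order PF-SO, PF-LO, LO-SO, at 12 and then at 32 weeks, the counts were 221, 76, 0, 109, 84 and 6 with DESeq2, and with DESeq2 and the block 142, 136, 12, 207, 169 and 19. With time on LO, 448 genes became 1096 with DESeq2 and 1180 with the GC offset (47 to 1043 leaving out 1 mouse). On SO, 1073 became 1805 with DESeq2 and the block (226 to 1556). On PF, 5 became 52 with DESeq2 and 0 with the block (0 to 7), and the interaction's 0 became 22 with DESeq2. For numbers, 560 and 1775 genes became 164 and 378 with the GC offset (DESeq2 1829 and 2758), and for mice numbered 1, 2428 and 3655 became 795 and 1357. Depth limits Fosb most.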
